A study of Mus musculus with 10 samples.

Results

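Runx1, Runx2, Runx3 and Cbfb encode the core-binding factors: the Runx proteins bind DNA through a shared Runt domain, and Cbfb encodes the partner subunit that has no DNA contact of its own but raises their affinity for DNA. The members were chosen by the gene symbol that the deposited annotation gives each ATAC-seq peak. They comprised 65 of 61581 peaks: 40 of Runx1, 21 of Runx3 and 4 of Cbfb. None carried the symbol Runx2, whose locus is described further on by position. The annotation names the nearest gene, which does not show that a peak acts on it.

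In T cells these factors work early and late. Runx1 and Cbfb are needed at several steps of thymocyte development, and Runx proteins silence Cd4 in cells that become CD8 T cells and Zbtb7b, the gene of the CD4 lineage factor ThPOK, in the same cells. Runx3 is best known for the CD8 and Th1 programmes, in which it helps to switch on Ifng and to silence Il4. Runx1 and Runx3 are each read from an upstream and a downstream promoter, which give proteins with different first residues. Runx2 is best known as the master regulator of bone formation.

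Accessibility was compared between KO and WT naive CD4 T cells of mouse spleen and lymph node, sorted as CD3+, CD4+, CD25-, CD44low/- and CD62L+. All 10 libraries came from mice of the genotype Satb1fl/fl x CD4-CreERT2wt/+, in which Cre recombinase needs tamoxifen to act and is expressed under CD4 control. KO libraries (n = 5, Sample_2268_KO to Sample_2272_KO) came from mice given tamoxifen, and WT libraries (n = 5, Sample_2273_WT to Sample_2277_WT) from untreated mice of that genotype. Satb1, the gene that is deleted, encodes a nuclear protein that helps to fold chromatin, and its deletion and tamoxifen itself cannot be told apart in this design. The labels give no age, sex or batch and do not say whether each library is a separate mouse, so the p-values here speak only of the spread from library to library, which may be technical.

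Libraries held 673398 to 2184717 counts in peaks, of which 523 to 1747 lay in peaks of these genes. Summed over its peaks, Satb1 had 420 to 457 CPM (counts scaled to library size) in KO and 356 to 405 CPM in WT, which does not check the labels because the floxed part of the gene is not named in them. In 6 of 20 pairs of libraries within a group the counts differed by no more than counting noise, and summing such libraries left 3 KO and 2 WT units; values from that setting are given where they matter. Peaks of all 8 CD4 T cell identity genes checked were present. Their summed level was 1056 to 1104 CPM in KO against 978 to 1075 CPM in WT. All 7 naive T cell genes had peaks too, at 3196 to 3428 CPM in KO against 2912 to 3221 CPM in WT. Of 8 myeloid markers 5 had an annotated peak, at 129 to 193 CPM in KO against 143 to 181 CPM in WT in sum, and Lyz2, Csf1r and Cd68 had none. In bulk libraries a change in the mix of cells and a change per cell cannot be told apart.

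The 250 bases before 4 RefSeq start sites (GRCm38.p6, the assembly that mm10 represents) are shown because a peak overlaps the RefSeq window of each start, which runs from 250 bases before to 50 after it, and because Runx proteins are known to act on promoters of Runx genes. Capitals mark the Runx consensus letters TGTGGT, or TGCGGT, on either strand, so that a site on the other strand appears as ACCACA or ACCGCA.
Runx1 upstream start (chr16:92826075-92826324, minus strand): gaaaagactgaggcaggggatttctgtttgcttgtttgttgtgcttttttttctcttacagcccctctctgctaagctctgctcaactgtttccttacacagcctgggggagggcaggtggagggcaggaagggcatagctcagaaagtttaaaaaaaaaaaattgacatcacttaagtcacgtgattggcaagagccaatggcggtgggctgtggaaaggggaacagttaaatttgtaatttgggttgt
Runx1 downstream start (chr16:92697330-92697579, minus strand): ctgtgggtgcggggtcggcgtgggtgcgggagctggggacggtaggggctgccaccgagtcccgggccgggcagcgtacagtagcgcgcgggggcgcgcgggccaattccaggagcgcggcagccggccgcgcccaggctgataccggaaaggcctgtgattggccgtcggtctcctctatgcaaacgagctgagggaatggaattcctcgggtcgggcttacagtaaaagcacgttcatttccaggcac
Runx3 upstream start (chr4:135120395-135120644, plus strand): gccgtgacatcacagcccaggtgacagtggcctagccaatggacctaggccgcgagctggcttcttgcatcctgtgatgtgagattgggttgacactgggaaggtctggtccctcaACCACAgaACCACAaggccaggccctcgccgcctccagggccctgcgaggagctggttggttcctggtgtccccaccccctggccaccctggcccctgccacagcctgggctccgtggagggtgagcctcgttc
Cbfb start (chr8:105170424-105170673, plus strand): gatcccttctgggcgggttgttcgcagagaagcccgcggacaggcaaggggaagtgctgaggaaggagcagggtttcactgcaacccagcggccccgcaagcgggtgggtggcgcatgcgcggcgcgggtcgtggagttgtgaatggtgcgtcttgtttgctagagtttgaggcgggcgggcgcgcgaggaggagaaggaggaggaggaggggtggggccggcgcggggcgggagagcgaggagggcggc

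The upstream Runx3 window held 2 copies of the letters, both on the strand opposite to the gene and starting 134 and 126 bases before the start site. The other 3 printed windows held none, which says only that these letters are not in them. Not printed are the window of the downstream Runx3 start, where the peak is annotated as 5' UTR, and that of Runx2, which no peak overlaps. The former held none of the letters and was 78.8% G or C with 38 CG dinucleotides, and the latter held 1 copy, 80 bases before the start. Over all 32851 RefSeq windows of this length, 18.6% held TGTGGT or TGCGGT. The upstream Runx1 window was 45.6% G or C with 2 CG dinucleotides, and the downstream one was 67.6% with 27. The Cbfb window was 69.2% G or C with 25, and the upstream Runx3 window 65.2% with 8, against a median of 52.4% and 6 over all windows.

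Over the start sites the members were accessible in both groups. Per kb of peak the WT level was 126 CPM over the upstream Runx1 start, 124 CPM over the upstream Runx3 start and 118 CPM over the Cbfb start, beside 136 CPM for the intronic Runx1 peak at 3879 bp, the highest of the members. By level in CPM these peaks stood at the 54.5th, 78.3rd and 80.9th percentile of all tested promoter peaks in WT. The peaks overlapping the downstream windows were less accessible, at 56.0 CPM per kb of peak for Runx1 and 92.4 CPM for Runx3 in WT. Per peak, not per kb, they had 9.86 ± 2.13 CPM and 23.6 ± 7.42 CPM in WT (SD, n = 5).

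Summed over all peaks of a gene, none of the 3 genes with peaks differed between KO and WT after adjustment over the 12489 genes tested with edgeR's quasi-likelihood test, in which 2.19% of all genes were called at an adjusted p under 0.05. Runx1 (minus strand of chromosome 16, 92601466 to 92826074, mm10) had 426, 457, 486, 517 and 469 CPM in Sample_2268_KO to Sample_2272_KO. In Sample_2273_WT to Sample_2277_WT it had 449, 493, 506, 459 and 489 CPM. The groups overlapped, with a mean of 471 ± 33.6 CPM in KO against 479 ± 24 CPM in WT (SD, n = 5). The fitted ratio was 0.980-fold with a 95% interval of 0.912 to 1.05 (edgeR adjusted p = 0.899).

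Runx3 (plus strand of chromosome 4, 135120645 to 135177990) had the smallest p of the 3 sums. Its level was 272, 262, 293, 280 and 284 CPM in Sample_2268_KO to Sample_2272_KO and 289, 324, 331, 284 and 285 CPM in Sample_2273_WT to Sample_2277_WT. Of the 5 KO libraries 4 lay below the lowest WT library, and Sample_2270_KO lay inside the WT range. Among the 4, Sample_2272_KO was nearly level with that library, at 283.9 CPM against 284.5 CPM in Sample_2276_WT. The fitted ratio was 0.912-fold, with a 95% interval of 0.842 to 0.989 and an unadjusted p of 0.0259 (edgeR). It did not pass the adjustment over all genes (adjusted p = 0.293), and the two-sided exact permutation test over the 10 libraries gave p = 0.0635.

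Cbfb (plus strand of chromosome 8, 105170674 to 105217989) had 110, 94.7, 107, 117 and 109 CPM in Sample_2268_KO to Sample_2272_KO. In Sample_2273_WT to Sample_2277_WT it had 98.9, 103, 106, 118 and 106 CPM. The means of 107 ± 8.09 CPM in KO against 106 ± 7.17 CPM in WT (SD, n = 5) gave a fitted ratio of 1.02-fold, with a 95% interval of 0.920 to 1.13 (edgeR adjusted p = 0.932). The interval for the partner subunit's gene was wider than those for Runx1 and Runx3.

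**Figure D1:**
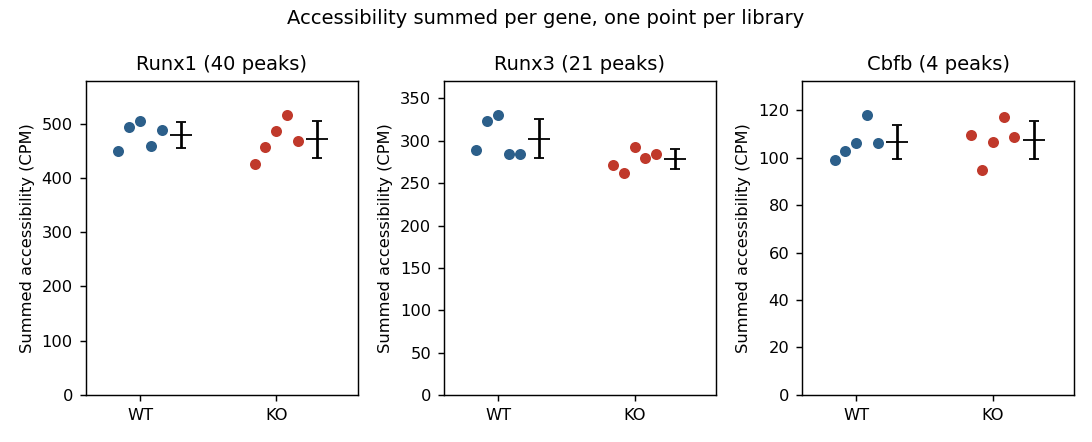
Accessibility summed over all peaks of Runx1, Runx3 and Cbfb (CPM, y axis from 0) in each WT (blue) and KO (red) library; the black mark is the mean and its bar the SD over 5 libraries. KO and WT overlap in each gene. For Runx3 4 of 5 KO libraries lie below the lowest WT library, with Sample_2272_KO nearly level with it.

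The genes are built differently in this annotation. In WT the 3 Cbfb promoter peaks held 94.7 ± 1.65% of the counts of Cbfb, and its remaining peak lay at -12827 bp from the start. The 3 Runx1 promoter peaks held 12.2 ± 1.40%, its 19 intronic peaks 62.3 ± 1.35% and its 18 distal intergenic peaks, which reach out to -245900 bp, 25.5 ± 1.33%. For Runx3 the 10 distal intergenic peaks held 44.5 ± 0.821%, the 8 intronic peaks 25.8 ± 1.46%, the 2 promoter peaks 21.7 ± 2.77% and 1 peak classed as 5' UTR 8.03 ± 2.81% (SD, n = 5). Most of the signal assigned to both Runx genes thus came from peaks not classed as promoter. Nearly all of that assigned to Cbfb came from peaks of that class. The peaks overlapping the downstream start windows of Runx1 and Runx3 are classed as intron and 5' UTR, so the promoter shares leave them out.

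Of the 65 member peaks 38 held enough counts to be tested, and none was called by edgeR over the 34910 tested peaks, of which 3.85% were called. DESeq2, run without the filter on low counts, gave an adjusted p for 59 member peaks and called 0. It had 5 member peaks at an unadjusted p under 0.05. With limma-voom 0 of 38 were called and 6 had such a p. Over all peaks DESeq2 called 519 of 52029 and limma-voom 1256 of 34910. Their shares of all peaks at that unadjusted p were not computed. At an unadjusted p under 0.05 edgeR had 6 of 38, where the share over all tested peaks was 13.6%; 5 of the 6 were lower in KO, where that share was 5.74%. Over the 38 peaks the median log2 fold change was -0.06, with 24 below 0 and 14 above, beside a median of -0.01 and 51.2% below 0 over all tested peaks. All KO libraries lay on one side of all WT libraries in 1 of the 38 member peaks, against 3.96% of all tested peaks. These counts describe the peaks that passed a filter on low counts: 6 of the 38 had all WT but not all KO libraries at its level, among them the Runx1 peaks at 22744 and -102153 bp, and 2 the reverse. The 27 peaks that were not tested had mean counts of 2.3 to 9.5 per library.

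**Figure D2:**
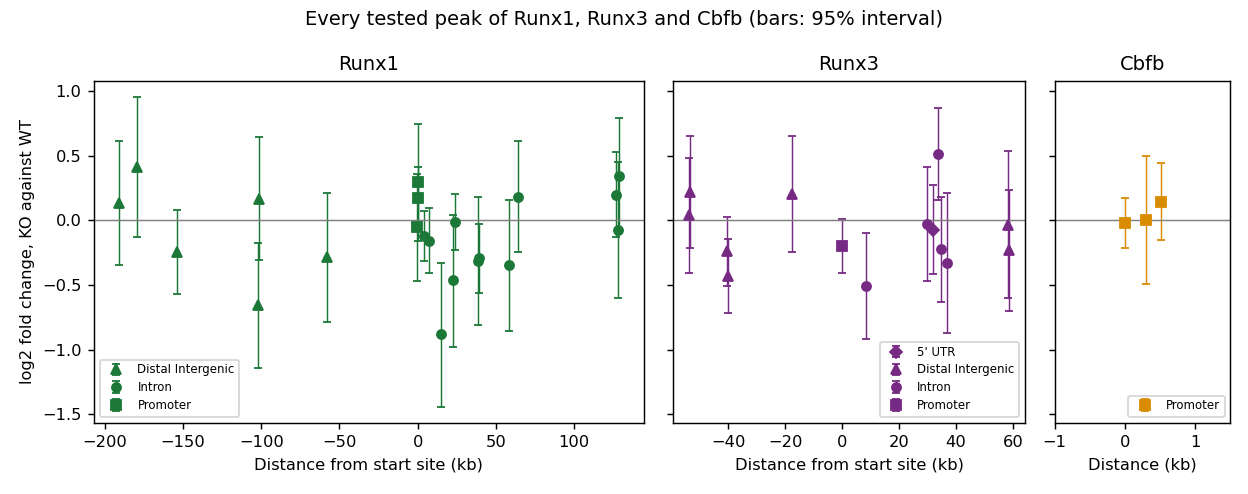
log2 fold change of KO against WT (y axis) with its 95% interval (bars) for the 38 tested peaks, by distance from the gene's start site in kb (x axis; negative is upstream). The lowest value, -0.88, is an intronic Runx1 peak, the highest, 0.51, an intronic Runx3 peak, and the 7 promoter peaks (squares) range from -0.20 to 0.29.

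At the promoters no peak passed. The peak over the upstream Runx1 start (92826043 to 92826300) had 34.4, 35.5, 38.3, 37.2 and 36.9 CPM in the KO libraries and 32.6, 27.6, 34.5, 31.5 and 35.8 CPM in the WT libraries, in the order of their numbers. Its fitted ratio was 1.13-fold, with KO and WT overlapping (edgeR adjusted p = 0.623). The flanking Runx1 promoter peaks at 424 and -312 bp had log2 fold changes of 0.29 and -0.05 (adjusted p = 0.642 and 0.956).

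The peak over the upstream Runx3 start (135120213 to 135120707), the window with the doubled Runx letters, had a fold change below 1. Its level was 64.0, 52.2, 46.7, 54.8 and 53.4 CPM in KO against 54.3, 74.5, 72.1, 57.9 and 48.6 CPM in WT. The ratio of 0.871-fold did not pass (edgeR adjusted p = 0.400), and the lowest WT library lay below 4 of the 5 KO libraries.

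The Cbfb peak over the start site (105170326 to 105170884) had 72.8, 58.4, 58.3, 72.3 and 57.4 CPM in KO against 66.3, 66.2, 61.1, 72.9 and 62.8 CPM in WT. Its log2 fold change was -0.02 with a 95% interval of -0.21 to 0.17. The other 2 Cbfb promoter peaks had log2 fold changes of 0.01 and 0.14.

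The downstream start sites, which give the shorter N termini, did not pass either. The peak overlapping the downstream Runx1 window (92697377 to 92697552, annotated as intron 2) had 13.3 ± 3.61 CPM in KO against 9.86 ± 2.13 CPM in WT (SD, n = 5, edgeR adjusted p = 0.545). That of Runx3 (135152405 to 135152659, annotated as 5' UTR) had 21.0 ± 6.06 CPM in KO against 23.6 ± 7.42 CPM in WT (adjusted p = 0.923).

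Away from promoters, the smallest p among the members belonged to an intronic Runx1 peak 15192 bp downstream of the upstream start (92810689 to 92810882, intron 2 of 7). It had 3.2, 8.34, 3.33, 5.32 and 6.99 CPM in KO against 6.52, 13.8, 7.84, 10.7 and 12.2 CPM in WT. Sample_2269_KO and Sample_2272_KO reached into the WT range, and the other 3 KO libraries lay below it. The ratio was 0.545-fold (log2 fold change -0.88 ± 0.28 SE), just short of the threshold with edgeR (adjusted p = 0.0558). With a mean of 11.7 counts per library it is one of the thinner peaks tested, and 2 KO and 4 WT libraries reached the level that the low-count filter asks for.

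Its call turned on single libraries and on the filter. It passed without Sample_2269_KO, Sample_2273_WT or Sample_2275_WT (edgeR adjusted p = 0.0393, 0.0356 and 0.0308), without the 3 libraries of lowest total count (0.0491) and with no filter on low counts (0.0440). The log2 fold change ranged from -1.02 to -0.74 when 1 library at a time was left out, with an edgeR adjusted p of up to 0.222. It was called in 5 of 18 alternative settings, and not with DESeq2 (adjusted p = 0.532) or limma-voom (0.0899).

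Around it, other sites in the same Runx1 intron had fold changes below 1 that did not pass. The peak at 22744 bp (92803238 to 92803330) was the member whose groups did not overlap, at 6.4 to 7.98 CPM in KO against 8.69 to 10.7 CPM in WT, yet its ratio of 0.726-fold had an edgeR adjusted p of 0.455. The stronger peak at 39020 bp (92786642 to 92787054) had 24.8, 28.2, 31.7, 29.2 and 25 CPM in KO against 36.9, 37.0, 37.1, 26.5 and 28.4 CPM in WT (0.816-fold, adjusted p = 0.310). There 3 WT libraries stood high, and the other 2 lay inside the KO range. The strongest Runx1 peaks, in the same intron at 3879 and 24109 bp, had 54.6 ± 4.01 and 45.9 ± 6.53 CPM in KO against 59.7 ± 4.18 and 45.7 ± 4.53 CPM in WT (SD, n = 5), with edgeR adjusted p-values of 0.687 and 0.981. Of the 12 tested intronic Runx1 peaks 9 had a log2 fold change below 0, where the share over all tested peaks was 51.2%. Among the 9, the peaks at 58293, 38694 and 22744 bp had all WT but not all KO libraries at the low-count filter's level. The peaks at 63929, 127149 and 128522 bp lay above 0, at 0.18, 0.20 and 0.34. Because the filter can tilt this count, nothing is read from it.

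Upstream of Runx1, fold changes on both sides of 1 occurred. A peak at -102153 bp (92928227 to 92928434) had 8.0, 8.34, 6.67, 5.32 and 10.5 CPM in KO against 9.78, 14.4, 11, 10.01 and 16.2 CPM in WT. Only Sample_2272_KO reached the WT range, and the ratio of 0.636-fold had an edgeR adjusted p of 0.138. The level that the low-count filter asks for was reached by 5 WT and 3 KO libraries. This peak was thus tested through the group where it was high, and nothing is read from its p-value. A peak at -113470 bp (92939544 to 92939707), singled out after its values were seen, had a higher mean in KO but too few counts for the filter. It had 4.80, 9.39, 16.7, 9.57 and 9.48 CPM in KO against 5.43, 2.21, 6.27, 4.29 and 4.05 CPM in WT, with Sample_2268_KO inside the WT range. It had 6, 9, 10, 18 and 19 counts in the KO libraries and 5, 4, 12, 6 and 6 in the WT libraries, in the order of their numbers. The level that the filter asks for was reached by 4 KO and 0 WT libraries, so a call on this peak under a looser filter supports nothing.

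Runx3 held the 2 next smallest p-values, in opposite directions. A distal intergenic peak at -39898 bp (135080275 to 135080747), the third strongest of Runx3, had 19.2, 22.9, 18.3, 20.2 and 27.4 CPM in KO against 32.6, 31.5, 33.4, 27.2 and 25.7 CPM in WT. Sample_2272_KO alone lay inside the WT range, and the ratio of 0.744-fold had an edgeR adjusted p of 0.0903. The call appeared without Sample_2272_KO or Sample_2277_WT (adjusted p = 0.0316 and 0.0475), and not with DESeq2 (0.643) or limma-voom (0.0975). Its stronger neighbour at -40450 bp had 29.8 ± 9.16 CPM in KO against 36.5 ± 6.23 CPM in WT (SD, n = 5, adjusted p = 0.455).

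Inside Runx3 a peak at 33659 bp (135154304 to 135154549, intron 2 of 5), shortly past the downstream start site, was the one with an unadjusted p under 0.05 and a higher mean in KO. It had 18.4, 19.8, 26.7, 20.2 and 22.0 CPM in KO against 12, 11, 15.1, 20.02 and 14.9 CPM in WT, with Sample_2276_WT inside the KO range. The ratio of 1.43-fold had an edgeR adjusted p of 0.0961, and 0.0335 without Sample_2276_WT. DESeq2 and limma-voom gave adjusted p-values of 0.750 and 0.0810. A peak in intron 1 at 8248 bp (135128893 to 135129121) had 9.6, 12.5, 18.3, 12.2 and 8.48 CPM in KO against 13.0, 17.7, 17.2, 13.6 and 16.2 CPM in WT (0.704-fold, adjusted p = 0.202). There Sample_2270_KO was the highest of all 10 libraries and the other 4 KO libraries lay below the lowest WT library.

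**Figure D3:**
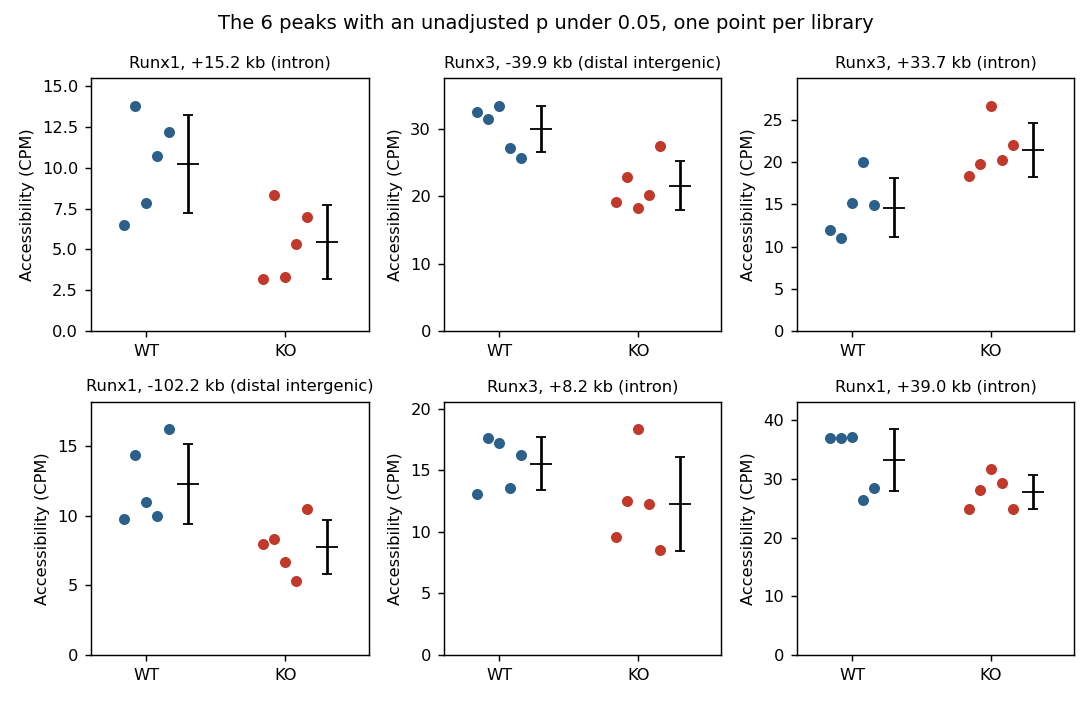
Accessibility (CPM, y axis from 0) in each WT (blue) and KO (red) library for the 6 member peaks with an unadjusted p under 0.05, named by gene and distance from the start site; the black mark is the mean and its bar the SD over 5 libraries. In 5 peaks the KO mean is below the WT mean and in the Runx3 peak at 33659 bp above it, and the groups overlap in each of the 6.

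Set beside all tested peaks of similar level, 35 of the 38 member peaks lay within the middle 95% of log2 fold changes, 3 lay below and 0 above. The 3 were the Runx1 peaks at 15192 and -102153 bp and the Runx3 peak at -39898 bp, all described above. At the 2 Runx1 peaks more WT than KO libraries reached the low-count filter's level. The Runx1 peak at -113470 bp, with a higher mean in KO, was left out by the same filter. Because the filter can tilt this count, nothing is read from its direction. Thinner peaks spread more widely in both directions.

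**Figure D4:**
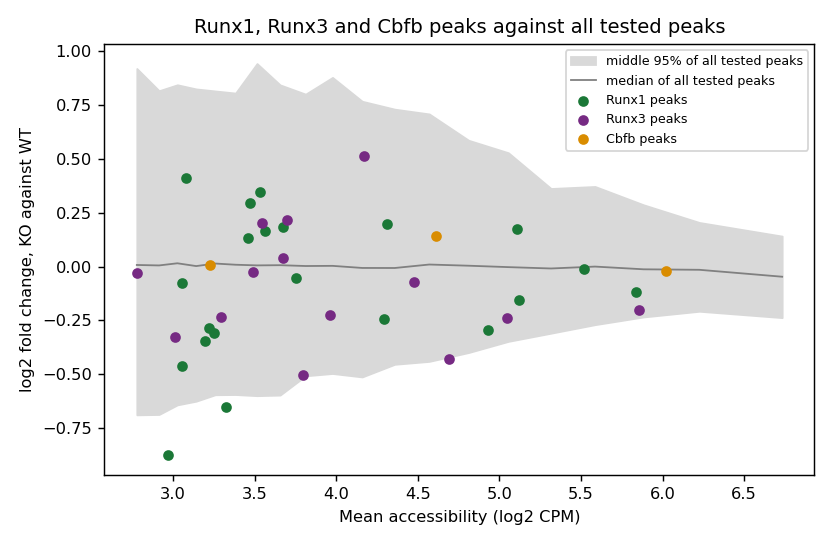
log2 fold change of KO against WT (y axis) against the mean level in log2 CPM (x axis) for the tested Runx1, Runx3 and Cbfb peaks (points), over the middle 95% and the median of all tested peaks in 20 level bins (grey). Of the 38 points 3 lie below the grey band and 0 above it, a count that the low-count filter can tilt.

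Ratios between counts of the same library, which need no scaling between libraries, compared the members with each other. The ratio of Runx1 to Runx3 counts was 1.57, 1.74, 1.66, 1.85 and 1.65 in the KO libraries and 1.56, 1.52, 1.53, 1.61 and 1.72 in the WT libraries. The groups overlapped, with a difference of 0.09 on the log2 scale (two-sided exact permutation p = 0.127, n = 5, adjusted over 3 pairs 0.250). For Runx3 to Cbfb and Runx1 to Cbfb the differences were -0.13 and -0.04 (adjusted exact permutation p = 0.250 and 0.603).

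Within Runx1 the sum over peaks classed as promoter and the sum over the other peaks had log2 fold changes of opposite sign. The other peaks include the one at the downstream start. Single peaks of either kind lay on both sides of 0. The ratio of promoter to other counts was above the WT mean in 5 of 5 KO libraries, at 0.139 to 0.164 in KO and 0.111 to 0.152 in WT. The difference of 0.15 on the log2 scale did not pass (two-sided exact permutation p = 0.167, adjusted over 3 genes 0.500). Fitted on its own, the Runx1 promoter sum had a log2 fold change of 0.15 and the sum of its other peaks -0.06 (edgeR adjusted p = 0.701 and 0.567). For Runx3 and Cbfb the promoter ratio differed by -0.04 and -0.28 (exact permutation p = 0.802 and 0.508, n = 5), the latter resting on 1 thin distal peak.

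Use of the upstream against the downstream start site was compared in a test added after the data were seen, because the annotation classes only 1 start site of each gene as a promoter. The ratio of counts was 2.09 to 4.25 in KO and 2.54 to 3.79 in WT for Runx1, a log2 difference of -0.23 (two-sided exact permutation p = 0.278, n = 5, adjusted over 2 genes 0.556). For Runx3 it was 1.92 to 5.33 in KO and 1.64 to 4.50 in WT, a log2 difference of -0.01 (exact permutation p = 0.992). Within each group the highest Runx3 ratio was more than 2 times the lowest.

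**Figure D5:**
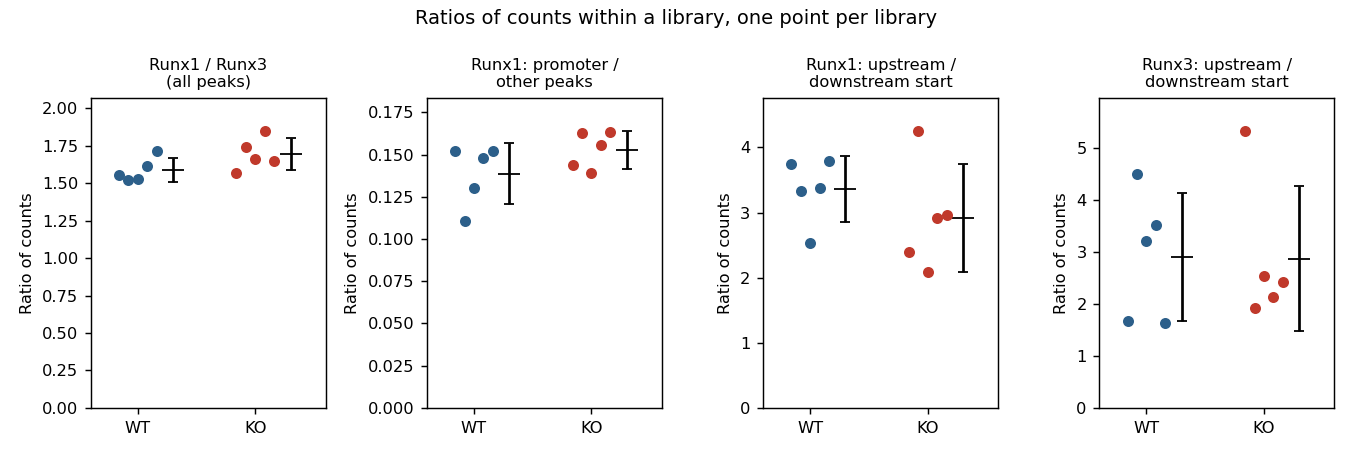
Ratios of counts within each WT (blue) and KO (red) library (y axis from 0): Runx1 to Runx3, Runx1 promoter to other peaks, and upstream to downstream start site for Runx1 and Runx3; the black mark is the mean and its bar the SD over 5 libraries. KO and WT overlap in each of the 4 ratios.

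The Runx2 locus was accessible in part, under another gene's name. Inside the RefSeq span of Runx2 (chromosome 17, 44495987 to 44814797) lay 13 peaks, and the annotation assigns all 13 to Supt3, which encodes a subunit of transcriptional coactivator complexes. In 6 of them the annotation text places the peak in a Runx2 intron. Those between 44735982 and 44736491 are classed as 5' UTR with no gene named for that class. They lay at -41128 to -40680 bp from the Supt3 start. Whether they mark a Runx2 start inside the span was not tested. No peak lay within 37102 bp of the upstream end of Runx2 (44814797), which does not speak of start sites further inside the gene. Of the 13 peaks 5 were tested and none was called by edgeR or had an unadjusted p under 0.05. Among the intronic ones the strongest (44654537 to 44655111) had a WT level of 41.2 ± 4.19 CPM (SD, n = 5), a log2 fold change of -0.05 and an adjusted p of 0.914. The tested 5' UTR peak (44736286 to 44736491) had a mean of 9.34 CPM in KO against 9.63 CPM in WT (n = 5, edgeR adjusted p = 0.929). All 13 summed to 161, 162, 155, 163 and 180 CPM in KO against 188, 168, 168, 180 and 178 CPM in WT (two-sided exact permutation p = 0.0556, n = 5). Here 4 of 5 KO libraries lay below the lowest WT library, but the sum includes the Supt3 promoter, and this set was formed after the data were seen.

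Other genes of the Runx pathway were read from 2 lists. Of 32 tested cofactor and modifier genes 1 was called by edgeR over all genes, against 2.19% of all genes, and the list's median log2 fold change was -0.02 beside -0.01 over all genes. It was Gata3, a zinc finger factor of T helper cells that can bind Runx proteins, at 387 ± 30.2 CPM in KO against 325 ± 22.6 CPM in WT (SD, n = 5, adjusted p = 0.00696). It was not called once libraries within counting noise were summed, which left 0 called cofactor genes. The next smallest p-values belonged to Yap1 and Tle1. Yap1, a coactivator of the Hippo pathway, had 8.64 ± 2.52 CPM in KO against 15.1 ± 2.84 CPM in WT (adjusted p = 0.0880). The level of the low-count filter was reached by 5 WT and 4 KO libraries, so nothing is read from the Yap1 p-value. Tle1 encodes a Groucho corepressor of the kind that binds the C terminus of Runx proteins, and had 120 ± 19.7 CPM in KO against 149 ± 19.5 CPM in WT (adjusted p = 0.109). Ets1, whose product binds DNA together with Runx1, had 589 ± 30.4 CPM in KO against 624 ± 47.1 CPM in WT (adjusted p = 0.567).

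Of 34 tested genes known as bound or regulated by Runx proteins in T cells 4 were called, against 2.19% of all genes, and all 4 were higher in KO: Il2, Il4, Il7r and again Gata3. With libraries within counting noise summed, Gata3 was not called (adjusted p = 0.206) and the other 3 were. Il2, the T cell growth factor gene, stood at 136 ± 15.2 CPM in KO against 78.4 ± 5.59 CPM in WT (1.74-fold, adjusted p = 8.8e-11). Il7r, the receptor gene for the survival cytokine IL-7, stood at 399 ± 25.1 and 304 ± 6.54 CPM (1.31-fold, adjusted p = 1.03e-06). The cytokine gene Il4, which Runx3 silences in Th1 cells, stood at 14.0 ± 4.01 CPM in KO against 5.26 ± 1.95 CPM in WT (SD, n = 5). All 5 KO libraries and 1 WT library reached the level of the low-count filter, so Il4 was tested through the group where it was high, and nothing is read from its call. The median of this list was 0.05 on the log2 scale. The lists were written with results for several of these genes known, so the counts are not independent evidence. The genes whose silencing by Runx is best described were not called: Cd4 had 88.5 ± 3.87 CPM in KO against 93.7 ± 8.63 CPM in WT (adjusted p = 0.692), and Zbtb7b 58.5 ± 3.31 and 56.0 ± 3.72 CPM (adjusted p = 0.854). Ifng, a target in the other direction, stood at 139 ± 11.3 CPM in KO against 118 ± 3.87 CPM in WT and did not pass (adjusted p = 0.0577).

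Across the 10 libraries the member sums did not move as one. On the log2 CPM scale Pearson's r was 0.55 between Runx1 and Runx3, 0.23 between Runx1 and Cbfb and 0.02 between Runx3 and Cbfb. The gene most like Runx1 among 7388 compared was Camk1d (r = 0.95), followed by Map3k8 (0.94) and Disp1 (0.91). For Runx3 they were Osgin1 (0.94), Vdac1 (0.92) and Aox2 (0.90), and for Cbfb Rara, Slc35e3 and Pou2f1 (0.90 each). These are descriptions over n = 10 libraries that share scaling and depth, and none of the 9 genes was called between KO and WT by edgeR.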

How the data were processed

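ATAC-seq libraries of 60000 cells each were sequenced as single reads of 75 bp, per the labels' protocols. The deposited table holds raw counts of reads in 61581 peaks, 10 of them mitochondrial, with the same peaks for every library. The second deposited file gives positions, classes and nearest genes of 61571 peaks. Per the submitters' processing notes the tools included Trimmomatic 0.36, Bowtie2 2.3.5, MACS2 2.1.2 and ChIPseeker 1.18.0, on mm10. They also list Picard without a version, SAMtools 1.9, and deepTools 3.5.2 and 3.3.0. Treatment of duplicates, any shift to the cut site and pooling for peak calling are not given in the sources used here.

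Counts of single peaks, and counts summed per symbol, were fitted over the whole table with edgeR 4.0.16 (R 4.3.3; glmQLFit, glmQLFTest, TMM, filterByExpr by group) with Benjamini-Hochberg adjustment and a threshold of 0.05. The fit was tested on simulated data that used a common dispersion. Of simulated peak changes it called 26% at 1.5-fold and 80% at 2-fold, so peak changes near 1.5-fold can be missed. For gene sums it called 94% and 92%. Levels are CPM of the TMM-scaled total of tested features. Fitted ratios weigh libraries by depth and can differ from the ratio of mean CPM. Standard errors follow from the fitted fold change and its F value. Exact permutation tests used all 252 assignments of 5 libraries (smallest p 0.00794). The libraries carry running numbers that pair none. Named peaks were those called, those in promoters and the 4 smallest p per gene; the Runx1 peak at -113470 bp was added. Likeness was Pearson's r of log2(CPM + 1) over genes of at least 50 CPM. Members and lists were chosen with earlier results of these data known. DESeq2 1.42.0, limma 3.58.1, other scalings, no filter, left-out and summed libraries were the alternatives.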

Additional observations from a re-analysis of the deposited data

How the results depend on the processing

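The number of called member peaks, 0, became 2 with no filter on low counts and 1 without the 3 libraries of lowest total count, and ranged from 0 to 2 when 1 library at a time was left out. Some of these calls were on the Runx1 peak at -113470 bp, which the looser filter lets in through KO libraries. The number stayed 0 with DESeq2, limma-voom, RLE size factors, cyclic loess, summed libraries and without mitochondrial peaks (the last added after the data were seen). Over all peaks 519 were called by DESeq2 against 1345. The Runx1 sum was reversed in promoter peaks alone (log2 fold change 0.15) and ranged from -0.072 to 0.0063 over single left-out libraries; Runx3 ranged from -0.16 to -0.10 and Cbfb from -0.012 to 0.068, none of them called. With libraries within counting noise summed, the 3 sums had log2 fold changes of -0.05, -0.15 and 0.02 for Runx1, Runx3 and Cbfb. Over single left-out libraries the Runx1 to Cbfb ratio ranged from -0.092 to 0.0048, Runx1 to Runx3 from 0.06 to 0.12 and Runx3 to Cbfb from -0.19 to -0.09. The promoter ratio ranged from 0.07 to 0.18 for Runx1, -0.12 to 0.045 for Runx3 and -0.40 to -0.0036 for Cbfb. The start-site ratio ranged from -0.38 to -0.12 for Runx1 and -0.25 to 0.18 for Runx3. None passed. The Cbfb peak at 296 bp was reversed with DESeq2 (-0.048), cyclic loess (-0.030), no filter (-0.013) and summed libraries (-0.022). Without the 3 libraries of lowest total count the Runx1 peak at -312 bp (0.051) and the Cbfb peak over its start (0.021) were reversed. Over single left-out libraries these 3 ranged from -0.19 to 0.12, -0.20 to 0.063 and -0.093 to 0.045. The cofactor list had 0 called genes with summed libraries and 1 to 2 over left-out libraries, the target list 7 with cyclic loess and 4 to 5 over left-out libraries. For each of these changes the cause was not tested. No paired analysis was possible because the groups share no replicate number. Thin peaks limit precision: the 27 untested member peaks averaged at most 9.5 counts.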
